A study of Mus musculus with 2 samples.

Results

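Of 83295 accessible intervals on chromosomes 1 to 19 of a control library of mouse CD8+ T cells, 604 overlapped 2 or more intervals of a treatment library and are called split here. They were chosen by overlap alone, with 1 bp or more counting, and no other value entered the choice. For comparison, 372 of 63351 treatment intervals overlapped 2 or more control intervals and are called joined. The split intervals were 0.725% of the control list (95% Wilson interval 0.670 to 0.785) and the joined ones 0.587% of the treatment list (0.531 to 0.650). Overlap and its consequences, which include width, gaps and the values of a control interval beside its pieces, are descriptions of how the lists differ and carry no test.

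ATAC-seq, in which a transposase inserts adapters where DNA is not wrapped in nucleosomes, was carried out on CD8+ T cells. The series title names them Peml-1, in that spelling, for both libraries, and asks how their chromatin landscape differs. Each group held 1 library, titled control or treatment, on the mm10 build. The field for treatment conflicts with these titles: it says "Treatment" where the title has control, and "Combined treatment" where the title has treatment. Beyond the name Peml-1, no strain or genotype is given in the sources used here. Neither the agent given nor the age, tissue or number of animals is given there.

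The replicate spread is unknown, every difference is between these libraries and not between conditions, and all intervals cover counting error only. Depth was judged from the peak values, from which a whole number of reads at the summit, called summit coverage here, could be recovered for 99.994% of control and 99.976% of treatment intervals. The lowest background was 14.15 in control and 15.05 in treatment. Divided by the width of the narrowest interval of each list, 176 and 186 bp, it stood at a ratio of 1.006 between treatment and control. By this measure the libraries were of like depth, but whether that width is the right divisor was not tested. Read totals were not used here. All 6 CD8 T cell markers (Cd8a, Cd8b1, Cd3d, Cd3e, Cd3g and Cd247) had an interval within 1 kb of a gene end in both libraries. Of the other lists, 6 of 6 myeloid markers had one in control and 4 in treatment, and 3 of 6 B cell markers had one in each. The corresponding counts were 2 of 2 CD4 T cell, 2 of 4 dendritic, 1 of 3 NK and 1 of 3 stromal markers in each library, and for melanocytes 3 of 5 in control and 2 in treatment. Split intervals lay at the loci of 1 of 6 CD8 T cell markers (Cd8b1), 1 of 2 CD4 T cell (Cd4), 1 of 6 B cell (Pax5) and 1 of 6 myeloid markers (Spi1), and at none of the dendritic, NK, melanocyte and stromal ones. Of all protein-coding genes 3.4% had a split at the locus. Each marker count rests on 1 gene at most, so no pattern by cell type is read from them. The part of other cells in the splits was not tested.

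As background, an accessible interval usually spans a regulatory element, such as a promoter at a gene's start or an enhancer farther away, where bound factors keep nucleosomes off the DNA. A wide interval can hold several elements side by side, with nucleosomes between them. A peak caller draws 1 interval wherever signal stays above its threshold and separate intervals where it drops below for long enough.

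Sequences are shown for 3 windows of 250 bases that end just before a gene start and lie in split intervals at genes of cytotoxic and exhausted T cells. They were chosen after their values were seen, because in the first and second most of the window falls between the treatment pieces and in the last none does. Letters in capitals lie in the gap, so they are inside the control interval and outside every treatment interval. The sequences are from RefSeq, build GRCm38.p6, the same assembly as mm10, and run 5′ to 3′ on the strand of the gene.
Gzmm, chr10:79688770-79689019, plus strand: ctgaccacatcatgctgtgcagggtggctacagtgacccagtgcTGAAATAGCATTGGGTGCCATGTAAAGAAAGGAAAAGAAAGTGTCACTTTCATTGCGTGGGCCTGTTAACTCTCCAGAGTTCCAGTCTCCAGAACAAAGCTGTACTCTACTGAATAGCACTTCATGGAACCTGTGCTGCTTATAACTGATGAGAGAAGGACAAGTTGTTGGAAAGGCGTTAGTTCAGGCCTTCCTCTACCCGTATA
Tox2 downstream start, chr2:163203936-163204185, plus strand: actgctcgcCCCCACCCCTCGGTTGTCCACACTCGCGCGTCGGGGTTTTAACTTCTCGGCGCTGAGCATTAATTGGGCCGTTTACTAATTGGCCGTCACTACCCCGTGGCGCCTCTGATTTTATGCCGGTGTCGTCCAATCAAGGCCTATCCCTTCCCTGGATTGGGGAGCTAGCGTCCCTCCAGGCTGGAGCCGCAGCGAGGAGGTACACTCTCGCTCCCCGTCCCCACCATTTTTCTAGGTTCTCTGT
Gzma, chr13:113100982-113101231, minus strand: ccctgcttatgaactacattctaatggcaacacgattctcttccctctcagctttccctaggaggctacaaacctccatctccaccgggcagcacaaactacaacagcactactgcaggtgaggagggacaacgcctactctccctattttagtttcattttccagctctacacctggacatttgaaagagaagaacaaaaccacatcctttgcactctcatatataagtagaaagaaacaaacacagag
In the Gzmm window 206 bases lay in the gap, in the Tox2 window 241 and in the Gzma window 0. Over all split intervals, 162 such windows of 143 genes lay inside, of which 22 touched a gap and 0 lay wholly in one.

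The Gzmm start, of the gene for granzyme M, a serine protease of cytotoxic granules, lay in a control interval at chr10:79688567-79689464 with a summit coverage of 373 reads. In treatment it was covered by pieces of 245 and 193 bp with 89 and 87 reads. The gap between them was 350 bp, and the annotated start at 79689020 fell inside it. No treatment interval therefore covered this start, although both flanks were called.

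At Gzma, which encodes granzyme A, the control interval chr13:113100875-113102182 had its summit, of 230 reads, on the far side from the start. Its treatment pieces held 248 and 76 reads and were 573 bp apart. The stronger piece was the one at the gene start, and it was no lower than the control summit. The weaker piece lay upstream of Gzma, where the control summit was, and that summit fell within the span of another gene, Cdc20b.

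Tox2 encodes an HMG-box factor related to Tox, both known from exhausted T cells. Its split interval, chr2:163202762-163204762, had 424 reads in control and 250 and 69 reads in its treatment pieces, 349 bp apart. The stronger piece held the gene's outermost start and the gap took most of the window before the downstream start printed above. At Tox itself a control interval of 2739 bp at chr4:6988923-6991661 had 1016 reads, and its pieces had 785 and 240. There the piece at the end of the gene span was the higher one, and the gap was 287 bp.

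**Figure D1:**
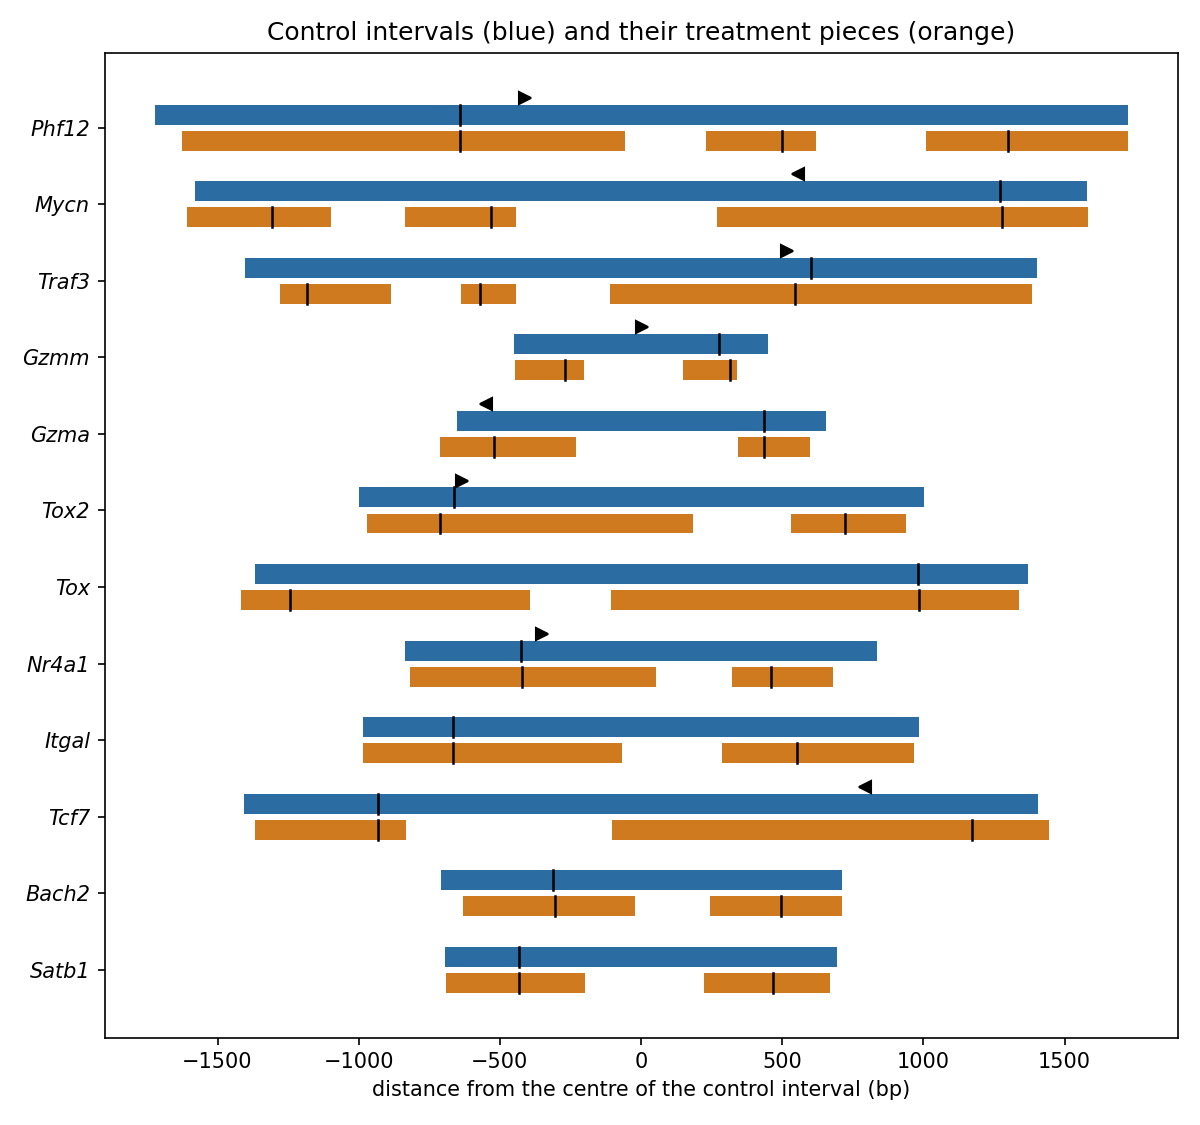
Control intervals (blue) and the treatment intervals overlapping them (orange) at 12 loci chosen after their values were seen, in bp from the centre of the control interval along the genome. Black bars mark summits and triangles the outermost annotated start in the interval with its direction; the Gzmm start lies between its pieces, while the Gzma, Nr4a1 and Tox2 starts marked lie in the stronger piece.

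Splitting was almost always into a pair. Of the 604 split intervals, 595 overlapped 2 treatment intervals, 9 overlapped 3 and 0 overlapped 4 or more. Of the joined intervals, 365 overlapped 2 control intervals and 7 overlapped 3. In 10 split intervals a piece also belonged to a join, so that the intervals of both libraries formed a chain. The rest of the control list overlapped 1 treatment interval (58250 intervals) or none (24441).

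Splits outnumbered joins by a ratio of 1.62, while the control list was 1.31 times as long as the treatment list. With the control list reduced to the 63351 intervals of highest −log10 p, 558 splits and 166 joins were left, a ratio of 3.36. Only weak control intervals were removed there, so neither count could rise, and a join could be lost with any 1 of its control intervals. The higher ratio therefore does not show what lists of equal length would give. With only intervals of at least 100 reads at the summit in both lists there were 308 splits and 235 joins. The shares then changed order, to 0.490% of control and 0.520% of treatment intervals.

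The threshold of 1 bp touched few members. The smallest overlap inside it was 2 bp, at a control interval at chr11:88690651-88691335, and 7 members rested on an overlap under 50 bp. Just outside it, the control interval chr7:75702850-75703454 began where a treatment interval ended, at 75702849, and 5 intervals in all missed a further overlap by less than 50 bp. For joins the smallest overlap was 8 bp, at chr10:80664035-80665213.

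Width was the plainest common feature of the split intervals. Their median width was 1586 bp (quartiles 1276 to 1934, range 265 to 5767), against 649 bp for control intervals that overlapped 1 treatment interval. Joined intervals had a median of 1361.5 bp against 557 bp. Of the split intervals, 558 (92.4%) were 1000 bp or wider. The share split rose from 0.0165% of overlapping control intervals under 500 bp and 0.156% at 500 to under 1000 bp to 2.32% at 1000 to under 1500 bp, 7.56% at 1500 to under 2000 bp and 18.1% at 2000 bp or more. In the mirror comparison the share joined rose with treatment width in the same way, to 13.3% at 2000 bp or more, so wide intervals were broken differently in either library.

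**Figure D2:**
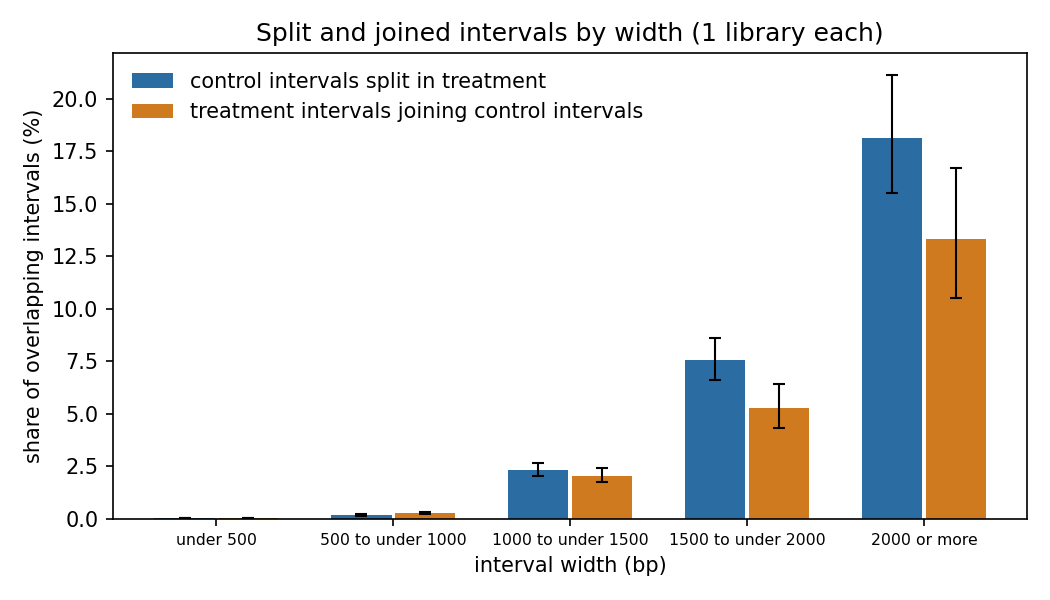
Share of overlapping intervals that were split (control list, blue) or joined (treatment list, orange) by interval width in bp, with 95% Wilson intervals for counting error. Both shares climb with width, to 18.1% and 13.3% in the widest class.

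The widest split intervals spanned several kb. The widest, of 5767 bp at chr11:106943969-106949735, lay 23748 bp from Smurf2, a ubiquitin ligase of TGF-beta signalling, and had only 81 reads at its summit, with 63 and 45 in its pieces. The next, of 5649 bp in Sik3, a salt-inducible kinase, had 758 reads in control and 350 and 252 in its pieces. In Zmiz1, a transcriptional coactivator, an interval of 4380 bp with 1184 reads kept a piece of 3181 bp with 912 reads and, 266 bp away, a piece of 265 bp with 228. The others of the 8 widest lay at En2, Ptch1, Phf12 and Patz1 and near Stk38l. In these, the treatment library kept most of the span and a short stretch was missing, except near Stk38l, where the pieces covered 21.9% of 3661 bp.

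Intervals in 3 pieces were found at Phf12, Mycn, Erfl, Traf3, Pcdh1, Dach1, Ndufa4l2 and Atp8b2, and at a further interval at chr19:53775047-53776504. Phf12, a PHD-finger protein of a Sin3 corepressor complex, had 1749 reads in control, and pieces of 1809, 359 and 532 reads. Mycn, of the MYC family, had 1059 reads in control and 149, 142 and 608 in the pieces. Traf3, an adaptor of TNF receptor signalling, had 724 in control and 433, 271 and 702 in the pieces. In each of these 3 the piece with the annotated start was the highest.

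The gaps were short. The 613 gaps between neighbouring pieces had a median of 288 bp (quartiles 231 to 381, range 187 to 1496), and 329 (53.7%) were under 300 bp. The shortest gap between any neighbouring intervals was 177 bp in the control list and 187 bp in the treatment list, close to the narrowest interval of each, 176 and 186 bp. Gaps in joins had a median of 246 bp, and 70.4% were under 300 bp. The files used here give no signal between intervals, so how far it fell inside a gap was not measured.

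The widest gaps, of 1496 bp near Stk38l, 885 bp in Ctbp2, 857 bp in Lat, 837 bp in Chd3 and 831 bp in Gm12248, were of different kinds. Near Stk38l the control summit had 100 reads and the pieces 41 and 35. In Ctbp2, a corepressor, it had 161 and the pieces 48 and 42. In Chd3, a chromatin remodeller, 918 reads stood beside pieces of 1265 and 383, so this gap lay between pieces that were not weak.

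The pieces covered a median of 71.9% of the split interval (21.9 to 93.9). The strongest piece had a median width of 702 bp and the weakest 354 bp. The control summit lay inside a piece in 595 of 604 and inside the strongest piece in 497 (82.3%). In most splits, then, a main piece stayed over the control summit with a smaller piece at its side. The median coverage of the weakest piece was 0.507 of the strongest. It was at least 0.8 of the strongest in 111 splits and under 0.2 in 75. The weakest piece had a −log10 q under 5 in 68 splits and under 10 in 193, where the lowest value in either list was just above 2.

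Summit coverage was mostly lower in the pieces. The strongest piece had fewer reads than the control summit in 534 of 604 splits (88.4%), with a median ratio of 0.640. The 57509 pairs of 1 control and 1 treatment interval had a median ratio of 0.703, so lower treatment coverage was general and not limited to splits. Among control intervals of 1000 bp or more the medians were 0.644 for splits and 0.831 for 12359 such pairs. The splitting rule and these ratios rest on the same intervals, so the contrast describes the members and supports no more.

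**Figure D3:**
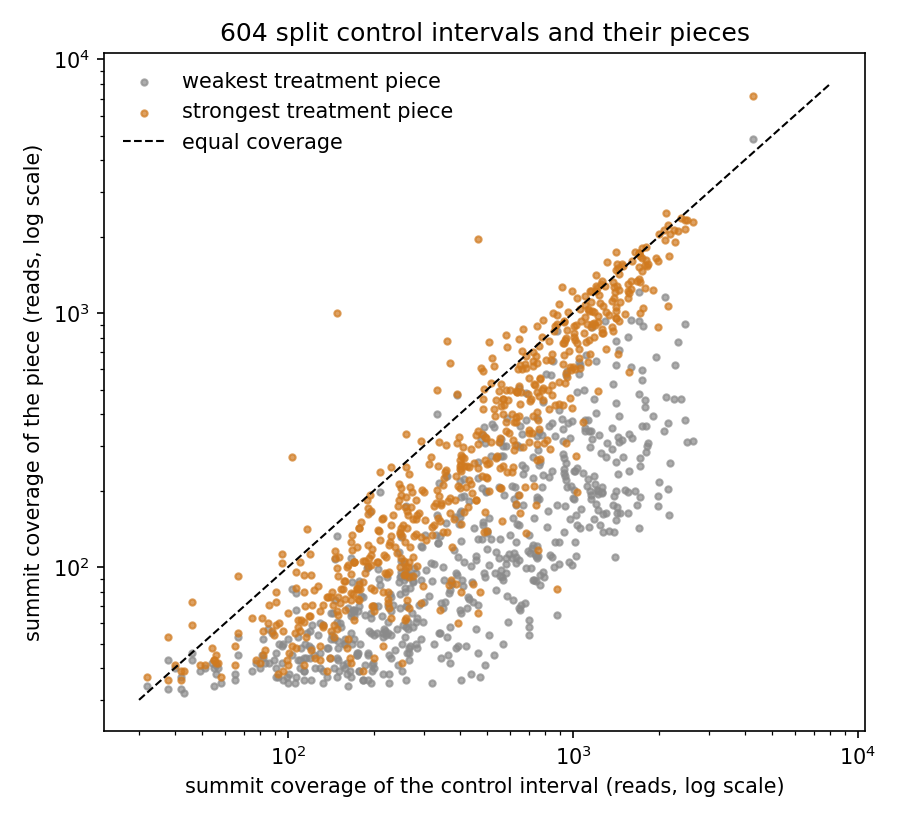
Summit coverage in reads (log axes) of each of the 604 split control intervals and of its strongest (orange) and weakest (grey) treatment piece, with a dashed line of equal coverage. The strongest piece lies below the line in 534 of 604 splits.

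Split intervals were also low for their width. At 1000 to under 1500 bp their median summit coverage in control was 281 reads against 895 for intervals overlapping 1 treatment interval. At 1500 to under 2000 bp it was 628.5 against 1134, and at 2000 bp or more 867 against 1166. Among overlapping control intervals of 1000 bp or more, the share split fell from 12.2% of those under 200 reads to 1.57% of those with 1600 reads or more. Joins behaved likewise, from 8.51% to 1.03%.

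High intervals were split as well. The split intervals of highest fold enrichment over local background, an authors' value, were 1 in Znrf2, a ubiquitin ligase (25.2-fold), and 1 in Sv2c, a synaptic vesicle protein (22.8-fold). They were followed by intervals 217745 bp from Jun and 20751 bp from Dhx40, and by those at Ddx19a, Gstp1, Mthfd1 and Glce. The Znrf2 interval at chr6:54866806-54867830 had 891 reads in control and 536 and 103 in its pieces. At Glce, an enzyme of heparan sulfate synthesis, 2010 reads in control stood beside 2053 and 216. At Mthfd1, a folate enzyme, the values were 2169 in control and 1686 and 161 in the pieces. Each of these pairs was 1 high piece over the control summit and 1 low piece beside it. Gstp1 has a neighbouring close copy, Gstp2, and reads of such genes can be hard to assign.

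Where the split intervals lay depended on their width. A summit counts as lying at a gene end when a boundary of a protein-coding gene span is 1 kb away or less, since strand and start were known for 16457 of the 20665 genes only. At any width 29.0% of split intervals were at gene ends, 41.2% elsewhere in gene bodies and 29.8% between genes, against 21.1%, 45.0% and 33.8% of intervals overlapping 1. Wide intervals lie at gene ends more often than narrow ones, however. Among those of 1000 bp or more, gene ends held 30.1% of split intervals (26.4 to 34) and 53.5% of intervals overlapping 1 (52.6 to 54.3). Gene bodies held 41.4% against 29.2% and the space between genes 28.5% against 17.4%. The direction thus turned once width was matched.

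The same order held in each of the wide classes. Gene ends held 17.9% of split intervals of 1000 to under 1500 bp against 50.6%, 31.9% against 62.4% at 1500 to under 2000 bp, and 48.1% against 60.7% at 2000 bp or more. Joined intervals of 1000 bp or more were at gene ends in 20.9% against 55.6% of treatment intervals overlapping 1. So the lower share at gene ends was found in both directions and is not particular to the control library.

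**Figure D4:**
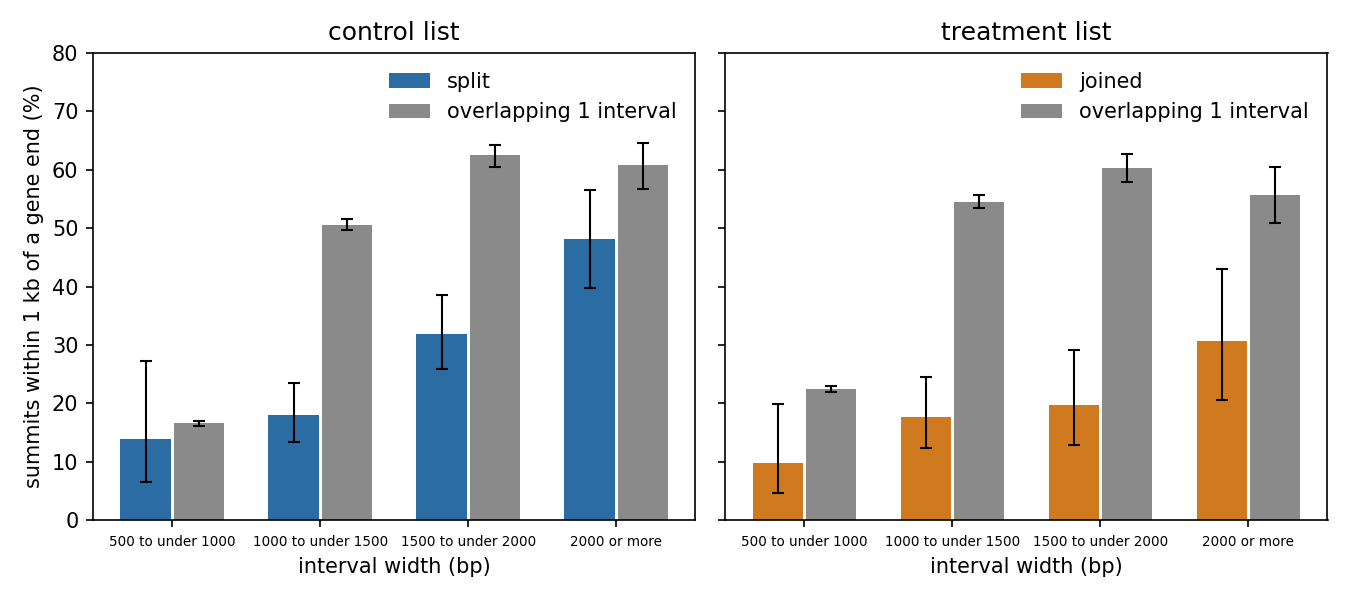
Share of intervals with a summit within 1 kb of a gene end by width in bp, for split control intervals (blue), joined treatment intervals (orange) and intervals overlapping 1 interval of the other list (grey), with 95% Wilson intervals for counting error. From 1000 bp upward the split and joined bars are below the grey ones, at 17.9% against 50.6% for control intervals of 1000 to under 1500 bp.

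Summit coverage moved with location, since intervals at gene ends were higher, and the comparison was therefore repeated within coverage classes. Among control intervals of 1000 bp or more with 400 to under 800 reads, 2.52% of those at gene ends were split (1.73 to 3.67) and 7.01% of those elsewhere (5.91 to 8.30). With 800 to under 1600 reads the shares were 1.97% and 3.72%. Under 200 reads they were 9.48% and 13.4%, with 200 to under 400 reads 5.23% and 7.45%, and with 1600 or more 1.36% and 2.2%, and in these 3 classes the intervals overlapped. For joins the lower share at gene ends held in all 5 classes, with 1.16% against 2.74% at 800 to under 1600 reads.

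**Figure D5:**
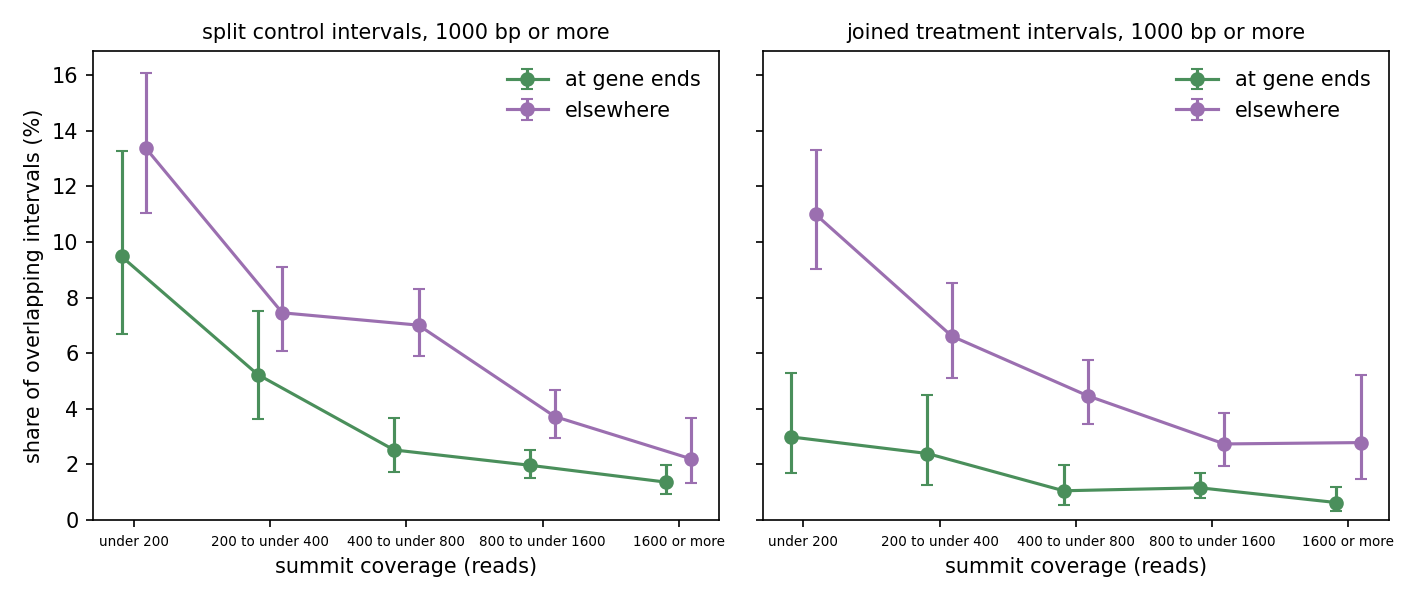
Share of overlapping intervals of 1000 bp or more that were split (left) or joined (right), by summit coverage in reads and by whether the summit was within 1 kb of a gene end (green) or elsewhere (purple), with 95% Wilson intervals for counting error. Shares fall with coverage and are lower at gene ends in all 5 classes of both lists, with overlapping intervals in 3 classes of the control list.

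At least 1 annotated start lay in 154 split intervals (25.5%), in 62 joined ones (16.7%) and in 5940 of 12464 unsplit control intervals of 1000 bp or more (47.7%). In 141 of the 154 the starts were on 1 strand. There the outermost start lay in the strongest piece in 103, in another piece in 25 and in a gap or an uncovered edge in 13. The weakest piece was downstream of the strongest in 103 of 141 (73.0%, 65.2 to 79.7) and downstream of the start itself in 110 (78.0%, 70.5 to 84.1). For joins it was downstream of the strongest in 33 of 57 (57.9%, 45.0 to 69.8) and of the start in 34 (59.6%, 46.7 to 71.4). Unsplit wide control intervals with a start also reached farther downstream than upstream in 76.1%, against 78.7% of the split ones. In the treatment list it was 73.7% of wide intervals overlapping 1, against 63.2% of the joined ones (50.2 to 74.5). Taking the outermost start favours a longer downstream arm where an interval holds several starts, and the lean was not separated from that choice.

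Nr4a1 had its start in the stronger piece and the weaker piece downstream. It encodes an orphan nuclear receptor induced by T cell receptor signalling, and its control interval chr15:101266362-101268031 had 1017 reads. The treatment piece with the start had 603 reads and the downstream piece, after a gap of 271 bp, had 126. Tcf7, which encodes the memory and stem-like T cell factor TCF1, also had its start in the stronger piece and the weaker piece downstream. Its control interval chr11:52280814-52283625, with 682 reads, left pieces of 535 and 1549 bp with 485 and 610 reads, 728 bp apart. Unlike at Nr4a1, the control summit lay in the lower piece.

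Genes were linked to a split when it touched the gene span with 10 kb on each side. Of 20665 protein-coding genes, 703 (3.4%) had a split interval and 376 (1.82%) a joined one, and 40 had both. Among the 11589 genes with a control interval of 1000 bp or more the share with a split was 5.96%. Of the 703 genes, 690 had 1 split, 12 had 2 and Fam78a alone had 3. The genes with 2 included Itgal, Meis1, a homeobox factor, Ptges2, a prostaglandin E synthase, Poli, a DNA polymerase, Wdr31, Scamp4 and Trim2. There was no gene within this distance for 98 splits.

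The 3 intervals of Fam78a all lay in its body on chromosome 2, within the gene span of 32045969 to 32087472. Their control summits had 399, 488 and 1451 reads. The strongest pieces had 325, 504 and 1228 reads and the weakest 148, 355 and 719. The gaps, of 191, 187 and 199 bp, were at or near the shortest the treatment list holds.

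Of 165 genes in 8 lists of T cell and general genes, 23 (13.9%) had a split interval and 17 (10.3%) a joined one, against 3.4% and 1.82% of all protein-coding genes. These genes also had more intervals, a median of 7 control intervals against 3 over all genes. Counted per interval, 24 of 1611 control intervals at these loci were split (1.49%, against 0.725% of all control intervals), and 21 of the 306 overlapping ones of 1000 bp or more (6.86%, 4.53 to 10.3), against 4.29% of all such intervals (3.95 to 4.65). The lists were chosen with earlier results of these data known and nothing is called particular to them.

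In the effector and exhaustion list 7 of 29 genes had a split interval (Entpd1, Fasl, Gzma, Nfatc1, Nr4a1, Tox and Tox2) and 1 a joined one (Nr4a2), where 3.4% and 1.82% of all genes had one. At these loci 7 of 214 control intervals were split (3.27%, 1.59 to 6.60, against 0.725% of all) and 1 of 163 treatment intervals was joined (0.613%, 0.108 to 3.39, against 0.587%). Entpd1, the ATP-hydrolysing ectoenzyme CD39, had 701 reads in control and 58 and 346 in its pieces. Near Fasl, the death ligand, 670 reads in control stood beside 176 and 298, with pieces of 264 and 189 bp. Nfatc1, a calcium-regulated factor downstream of the T cell receptor, had 660 reads against 601 and 334. Its gap of 192 bp was among the shortest, whereas at Entpd1 372 bp were missing beside a weak piece.

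In the T cell identity and receptor signalling list 6 of 30 genes had a split interval (Cd28, Cd8b1, Lat, Satb1, Tcf7 and Themis) and 7 a joined one (Bcl11b, Cd28, Cd8a, Cd8b1, Ets1, Lat and Themis), beside 3.4% and 1.82% of all genes. Per interval, 6 of 473 control intervals at these loci were split (1.27%, 0.583 to 2.74), and 4 of 73 wide ones (5.48%, 2.15 to 13.3, against 4.29% of all wide ones). Satb1, a chromatin organiser, had a split interval in its body with 584 reads in control and 344 and 103 in the pieces, 419 bp apart. Cd8b1, the CD8 beta chain, had a split interval of 971 bp with 211 reads, with pieces of 236 and 197 reads and a gap of 523 bp. The piece of 236 reads was 525 bp wide, overlapped the split interval by 81 bp only and had its summit outside. Cd8b1 also had a joined interval of 1742 bp, in which 486 treatment reads spanned control intervals of 364 and 140 reads. The Cd8b1 body thus held a join and, by a short overlap at an edge, a split.

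Lat and Cd28 were split and joined in chains and by little overlap. At Lat, an adaptor of T cell receptor signalling, the control interval of 1140 bp with 464 reads touched a treatment piece of 244 bp, with 224 reads, and by 15 bp the promoter interval of 1957 reads. At Cd28, the costimulatory receptor, a control interval of 439 bp with 149 reads overlapped the stronger treatment interval at the promoter by 9 bp and a piece of 133 reads by 219 bp. Both would not count as split at an overlap of 50 bp. Near Themis, a regulator of thymocyte selection, the chain was of weak intervals, with 107 reads in control and 68 and 96 in the pieces.

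Of the migration and adhesion list, 4 of 14 genes matched on these chromosomes had splits and 1, Selplg, a join, beside 3.4% and 1.82% of all genes. Per interval, 5 of 95 control intervals at these loci were split (5.26%, 2.27 to 11.7), against 0.725% of all. Itgal, the alpha chain of the integrin LFA-1, had 2 splits. The one at its gene end, chr7:127295870-127297839, had 1557 reads in control and 1146 and 163 in the pieces. The other, 1186 bp wide in the gene body, had 216 reads against 55 and 156. Itgb2, the beta chain of the same integrin, had 1138 reads in an interval at its gene end and 782 and 144 in the pieces. The interval in Itgae, the gene of CD103, also held the start of Haspin, a histone kinase inside it, with 1197 reads against 213 and 900. Near Cd69, a retention receptor, the interval was weak, with 107 reads against 83 and 79.

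In the other lists the share of genes with a split was 6.67% (naive and memory), 4.17% (cytokine receptors and signalling), 10% (early response factors), 11.1% (chromatin regulators) and 0% (housekeeping). It was 3.4% of all genes and 5.96% of those with a control interval of 1000 bp or more. Per interval, 2 of 104 control intervals were split at early response loci (1.92%, 0.529 to 6.74). At chromatin regulator loci 2 of 164 were (1.22%, 0.335 to 4.34). Both Wilson intervals include the 0.725% of all control intervals. In the naive and memory list Bach2 alone of 15 genes had one. Bach2, a repressor that holds T cells in a less differentiated state, had 679 reads in control at chr4:32423464-32424883 and 628 and 245 in its pieces, 266 bp apart. Bcl2 and Ccr7 had joins. Of 24 cytokine receptor and signalling genes, Il21r alone had a split, which lay between genes with its summit 9221 bp from Il21r. It had 1578 reads in control and 334 and 589 in the pieces. Il21r, Jak1 and Tgfbr2 had joins. The 3 joined intervals of Tgfbr2, a TGF-beta receptor, had 167, 133 and 122 reads. Both these lists thus had more genes with joins than with splits, but on few genes, where 1.82% of all genes had a join. Per interval, in the naive and memory list 1 of 253 control intervals was split and 2 of 243 treatment intervals were joined. In the cytokine receptor and signalling list these were 1 of 241 and 5 of 208. The Wilson intervals of the split and joined shares overlapped in both lists, so no difference is read from these counts.

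Of 20 AP-1, NF-kB and early response factors, Egr1 and Irf1 had splits, and Irf1 also a join. The split of Irf1 lay between genes, with its summit 8475 bp from the gene. Egr1, a zinc finger factor induced within minutes of stimulation, had 2399 reads in control and 2379 and 459 in the pieces, so its main piece was nearly as high as the control summit. Of 18 chromatin regulators, Hdac3, a histone deacetylase, had 961 reads against 1009 and 369, in an interval that also overlapped Rell2. Rad21, a cohesin subunit, had 1415 reads against 1473 and 199, in an interval that also overlapped Gm52217. Ncor1 and Tet3 had joins. None of the 15 housekeeping genes had a split or a join, but at 0 of 69 control intervals the upper Wilson bound was 5.27%, so a lower share was not detectable.

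The joined intervals gave the mirror picture. Those of 3 control intervals and greatest width lay in Akap6, Cmc1, Mvb12b and Fyb. Fyb, an adaptor of T cell receptor and integrin signalling, had a joined interval of 2030 bp at chr15:6578079-6580108 with 409 treatment reads over control intervals of which the highest had 378 reads and the lowest 269. Those of highest fold lay at Gm3435, Phactr4 and Gm3417 and 118098 bp from Cd47. Gm3435 and Gm3417 are predicted genes close together on chromosome 17 with like values (1427 and 1431 reads), and whether their reads can be told apart was not tested. The highest control interval of a join had more reads than the treatment interval that spanned it in most cases, since it had fewer in 130 of 372. A treatment interval could therefore bridge control intervals although treatment coverage was the lower one.

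Both events met in 10 chains, of which the widest lay in Erfl, near Frmd8 and near Themis. Erfl, an ETS repressor-like gene, had 249 reads in control and 3 pieces of 1749, 894 and 317 bp, of which the highest had 204 reads. The interval near Frmd8, at chr19:5843723-5846090, had 1237 reads in control and 1174 and 332 in its pieces.

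Sequence was compared in the promoter windows only, which reach from 250 bases before to 50 after a start. Of 190 windows with a start in a split interval, 20085 windows in all and 7614 in unsplit control intervals of 1000 bp or more, exact matches on both strands were counted for 9 motifs. GGGCGG (SP/KLF) was held by 73.7% of split windows, 72.9% of unsplit wide ones and 47.0% of all. CCAAT (NFY) was held by 30.5%, 36.0% and 38.1%, and CCGGAAG (ETS) by 9.47%, 18.9% and 11.9%. TGANTCA (AP-1) was held by 6.84%, 3.68% and 7.06%, TGTGGTT (RUNX) by 5.26%, 2.98% and 4.77%, and CTTTGAT (TCF7/LEF1) by 0.526%, 1.85% and 3.26%. The shares were 5.26%, 3.35% and 2.3% for TGACGTCA (CREB/ATF), 2.11%, 2.34% and 1.34% for the NRF1 motif and 20.5%, 19% and 13.1% for AGGGGGC (part of the CTCF motif). A match is a description of the letters and not a bound site. The median GC content was 63.8% in split, 64.3% in unsplit wide and 57% in all windows, so the split windows were as GC-rich as other wide promoter intervals. The Gzmm and Tox2 windows printed above hold CCAAT on 1 strand or the other, and the Gzma window holds the RUNX letters.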

How the data were processed

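ATAC-seq was carried out on 2 libraries of mouse CD8+ T cells, grouped by their titles. Per the submitters' processing notes, the tools were cutadapt 2.5, Bowtie2 2.3, Picard 2.20 and MACS2 on mm10. Their settings, read filters and any correction for the transposase offset are not given in the sources used here, and all of them can move interval edges and so create or close a gap. The authors deposited 1 narrowPeak list per library, of 85285 and 65098 intervals, not pooled. Each interval carries the authors' score, their fold enrichment (a ratio to local background), their −log10 p-value and −log10 q-value, and the summit offset. These deposited values rank or describe intervals within a list and are set side by side between lists.

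Intervals on chromosomes 1 to 19 were intersected with an overlap of at least 1 bp. Summit coverage is the whole number of reads that reproduces fold and −log10 p to within 0.001 in −log10 p. In simulated lists, 200 of 200 planted splits, 200 of 200 joins and 0 others were found. Coverage was recovered in 100% of 20000 simulated peaks, and still came out whole in 0.66% after p was changed. The simulated peaks were made with the formula that the recovery inverts, so full recovery checks the calculation only. Their coverage and background did not reach the highest values of the data. Genes and sequences came from RefSeq tables of GRCm38.p6, with 20665 protein-coding genes. A genome sequence was not used here, so gaps away from starts have no sequence shown. Shares carry 95% Wilson intervals. With 1 library per group no test was made.

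The genes named are the 8 splits with most pieces, the 8 of highest fold, the 8 widest, the 5 with the widest gap, 8 joins, the 8 genes with most splits, the list genes with a split or join, and 3 chains. Gzmm and the loci of the map were named after their values were seen. The members and lists were chosen with earlier results of these data known. Cxcr3 lies outside chromosomes 1 to 19. Alternatives changed the overlap, −log10 q minimum, list length, joining of close intervals, gene end window, placement and locus. Python 3.11.15, numpy 2.4.6, pandas 2.3.3, scipy 1.17.1 and matplotlib 3.10.9 were used.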

Additional observations from a re-analysis of the deposited data

Results flagged for a closer look

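On chromosome X, on unplaced contigs and on the mitochondrial genome, which the main comparison left out, the joined share was above the split share. The order over chromosomes 1 to 19 together was the other way, but chromosomes 6, 8 and 16 also had a joined share above the split share. On chromosome X 8 of 1515 treatment intervals were joined (0.528%) and 9 of 1792 control intervals were split (0.502%). On unplaced contigs 4 of 183 treatment intervals were joined (2.19%) and 2 of 141 control intervals were split (1.42%). On the mitochondrial genome 2 of 5 treatment intervals were joined (40%) and 0 of 7 control intervals were split. On chromosome Y 0 of 44 treatment intervals were joined and 0 of 50 control intervals were split. These differences were not tested, and each rests on few intervals.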

How the results depend on the processing

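Of 121 values recomputed under 15 alternatives, 80 were labelled close to the reported value and 41 moved. The 80 include every value from joining intervals closer than 100 bp, which could change nothing because the shortest gap was 177 bp. Close was broad for counts, and included 411 splits in place of 604 at −log10 q of at least 10. A change of sign was defined for the ratio of splits to joins only, and it occurred in 0 alternatives. The order of the split and joined shares did turn, with at least 100 reads in both lists. Splits outnumbered joins in every alternative that recounted them, with ratios from 1.31 to 3.36. The highest ratio came from trimming the control list alone, which removes joins more readily than splits. The share at gene ends of wide split intervals stayed below that of wide intervals overlapping 1.

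At −log10 q of at least 5 the split share was 0.658%. At 10 or more it was 0.528%, the joined share 0.485%, the median split width 1651 bp and the genes with a split 468. With the control list reduced to the length of the treatment list, the split share was 0.881%, the joins 166 or 0.262%, the ratio 3.36 and the share of wide joins at gene ends 27.3%. Joining intervals closer than 100 bp first changed nothing, since no gap is that short. At 200 bp the joined share was 0.493% and the median gap 301 bp.

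The following were chosen after seeing the data. Joining at 300 bp left 232 joins (0.371%), a ratio of 2.71, a median split width of 1660 bp, a median gap of 389 bp and 51.8% of wide intervals overlapping 1 at gene ends. Joining at 500 bp left 165 joins (0.270%), a ratio of 3.35, a width of 1947 bp, a gap of 586 bp and 48.3%. With at least 100 reads in both lists there were 308 splits (0.490%), 235 joins (0.520%), a median width of 1763 bp and 389 genes, and gene ends held 35.4% of wide splits, 54.6% of wide intervals overlapping 1 and 26.7% of wide joins.

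With a gene end window of 0.5 kb these 3 shares were 22.8%, 46.6% and 15.7%, and with 2 kb 39.4%, 59.6% and 28.4%. The genes with a split were 437 by gene span alone and 1604 with 50 kb on each side. The cause of these moves was not tested. No paired analysis was possible because each group has 1 library. In 68 splits the weakest piece had −log10 q under 5, and the part of depth in this was not tested.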

Other observations

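The share of control intervals split ranged over chromosomes from 0.404% on chromosome 16 (12 of 2967) to 0.954% on chromosome 18 (24 of 2515), and chromosome 16 was the one of these with more joins than splits, 14 against 12. The genes of 5 named microRNAs, Mir5100, Mir9-2, Mir6392, Mir7058 and Mir5133, lay in split intervals. So did the predicted hairpin Gm51268, on the strand opposite Mir9-2. The share over all microRNA genes was not counted, so no excess is read from these. Mir7058 lay in the split interval of Lat and Mir5133 in that of Glce. The gene of Mir155, a microRNA induced in activated lymphocytes, lay in a joined interval on chromosome 16 with 506 treatment reads, over control intervals of 651 and 279 reads that were 247 bp apart.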
